A study of Mus musculus with 59 samples.

Results

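BCL6 and PPARδ were mapped by chromatin immunoprecipitation and sequencing (ChIP-seq) in livers of wild-type male C57BL/6 mice after an overnight fast, with 3 animals for each factor. For comparison, peak lists of BCL6, PPARδ and PPARα from fed C57BL/6 livers and of PPARα from fasted ones were used. A fed BCL6 list from livers of Bcl6 fl/fl mice, floxed controls without Cre, was used as well. The fasted BCL6 list held 9613 peaks and the fasted PPARδ list held 2399 peaks, in the mouse genome build mm10. Peaks of both lists were compared by the distance between their centers, and centers less than 200 bp apart were counted as the same site. This gave 843 shared sites, 8770 BCL6-only sites and 1556 PPARδ-only sites, or 11169 sites in all, out of 102931 peaks in the 7 lists of the series. No site held more than 1 peak of either list. Ages of the mice were not given in the sources used here, and whole liver chromatin was used, so the cell type behind a peak is not recorded. For fed BCL6, the study reports very similar peaks when livers without hepatocyte Bcl6 served as background. It takes its BCL6 peaks as binding in hepatocytes. Each list combines its 3 livers and gives positions only, without tag counts, scores or p-values. Library depth is therefore not known here, no value has an error from replicates, and each site is simply in a list or not in it. Intervals are 95% Wilson intervals and, like the Fisher's exact tests, cover the counting of sites, which are not replicates.

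BCL6 is a zinc finger repressor, best known from germinal center B cells, that recruits corepressor complexes with histone deacetylases. PPARδ is a nuclear receptor that binds DNA as a heterodimer with RXR and is activated by fatty acids. PPARs recognize a direct repeat of a hexamer with a single base between the copies (DR1), and their known targets in liver include genes for fatty acid oxidation, ketone body synthesis and lipid storage. PPARα, a close relative with the same type of response element, is the main PPAR of hepatocytes during fasting.

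Sequences around a few sites, chosen because they hold the elements named below, serve as examples and do not stand for their classes. Windows of 100 bp at the center of the site are given on the forward strand of mm10 (GRCm38). Capitals mark the best match to the DR1, which is 2 copies of AGGTCA in the same orientation with 1 base between them. They also mark the BCL6 element TTCCTAGAA where a match to it is named, and in the BCL6-only windows they mark this element alone. Both elements were searched on both strands. A match is a description of letters and not evidence of binding. Most windows lacked such matches: with up to 2 mismatches, the DR1 was in 17.3% of PPARδ-only and 13.5% of shared windows. The BCL6 element without any mismatch was in 1.82% of BCL6-only windows.

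The shared site 22920 bp upstream of the transcription start site (TSS) of Bdh1, which encodes the dehydrogenase for the last step of ketone body synthesis, lies at chr16:31399328-31399427 between genes. It was the only shared site near a listed gene whose window, with no exon in it, held both elements, with 2 mismatches to the DR1 and 1 to the BCL6 element. The centers of the elements were 14 bp apart. The window of the shared site at the Bdh1 promoter, not shown, had 4 mismatches in its best match to the DR1.
Bdh1 shared site: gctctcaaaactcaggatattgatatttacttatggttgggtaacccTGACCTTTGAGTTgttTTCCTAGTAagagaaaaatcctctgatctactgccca

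Among PPARδ-only promoter sites of listed genes whose window held a DR1 and no exon, the pair nearest to the TSS is shown next, each with 2 mismatches to the DR1. Sites without a DR1, such as that of Plin5 at 97 bp, could lie nearer. They lie at Etfa (chr9:55512294-55512393), a subunit of the flavoprotein that takes electrons from the acyl-CoA dehydrogenases, and at Acadm (chr3:153944924-153945023), the medium-chain acyl-CoA dehydrogenase.
Etfa PPARδ-only site: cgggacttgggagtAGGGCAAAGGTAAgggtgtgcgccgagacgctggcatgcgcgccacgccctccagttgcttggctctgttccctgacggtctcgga
Acadm PPARδ-only site: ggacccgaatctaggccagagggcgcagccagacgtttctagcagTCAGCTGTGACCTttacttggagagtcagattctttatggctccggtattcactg

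For contrast, a BCL6-only site without fasted PPARα lay at the promoter of Ehhadh, the bifunctional enzyme of peroxisomal beta-oxidation, 467 bp upstream of its TSS at chr16:21788252-21788351. A like site lay in intron 1 of Onecut1, which encodes the hepatocyte factor HNF6, at chr9:74865541-74865640. Both hold the BCL6 element with 0 mismatches, on the reverse strand at Ehhadh. These windows were chosen after values were seen.
Ehhadh BCL6-only site: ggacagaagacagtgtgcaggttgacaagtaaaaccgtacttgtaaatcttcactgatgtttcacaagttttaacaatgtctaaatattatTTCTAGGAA
Onecut1 BCL6-only site: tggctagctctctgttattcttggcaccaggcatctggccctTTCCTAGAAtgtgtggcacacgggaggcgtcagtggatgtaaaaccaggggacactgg

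The overlap was small for BCL6 and larger for PPARδ, as the lists differ in length. Shared sites made up 8.77% of the fasted BCL6 peaks (interval 8.22% to 9.35%) and 35.1% of the fasted PPARδ peaks (33.3% to 37.1%). Where both factors were called, their centers lay close together, with a median distance of 35.0 bp and quartiles of 17.5 and 64.5 bp. Of the 843 pairs, 772 (91.6%) were less than 100 bp apart and 298 were less than 25 bp apart. BCL6 centers around PPARδ centers fell from 422 per 100 bp within 200 bp to 19.5 per 100 bp between 200 and 1000 bp and 12.6 per 100 bp between 1000 and 5000 bp. Few pairs lay at the limit: the widest shared pair was 198 bp apart, and 5 PPARδ-only sites had a BCL6 center between 200 and 210 bp away.

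**Figure D1:**
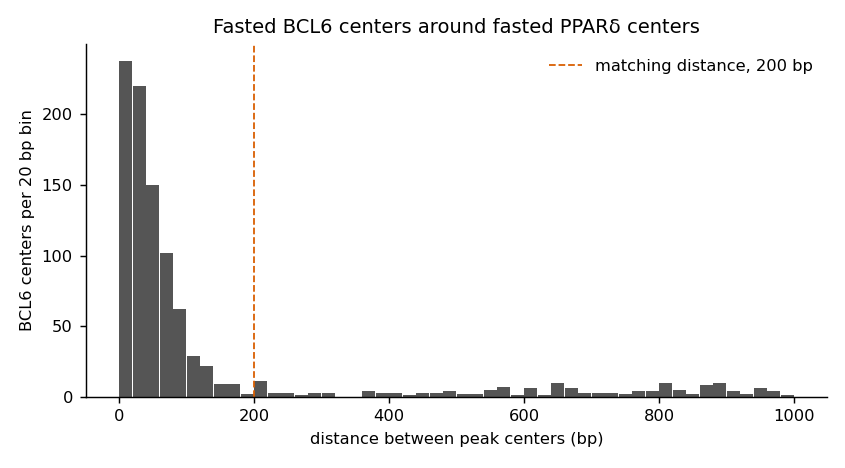
Number of fasted BCL6 peak centers per 20 bp bin (y axis) by distance in bp from a fasted PPARδ center (x axis), up to 1000 bp. The 843 pairs left of the dashed line at 200 bp are the shared sites, and 772 of them lie within 100 bp.

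Sites that 1 factor held alone were mostly far from the other factor. The median distance from a PPARδ-only site to the nearest fasted BCL6 center was 51718 bp, and 79 of the 1556 sites (5.08%) had one within 1000 bp. For BCL6-only sites the median distance to fasted PPARδ was 162994 bp, and 130 of 8770 (1.48%) had a PPARδ center within 1000 bp.

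PPARδ-only sites lay in promoters more often than sites with BCL6. Promoters were defined around the TSS of each RefSeq transcript, with 1000 bp before it and 100 bp after it. By this measure 151 of 1556 PPARδ-only sites were in promoters (9.70%, interval 8.33% to 11.3%), against 38 of 843 shared sites (4.51%, 3.30% to 6.13%) and 444 of 8770 BCL6-only sites (5.06%, 4.62% to 5.54%). The odds of a promoter site were 2.28-fold higher for PPARδ-only than for shared sites (Fisher's exact test, two-sided, adjusted p = 5.26e-06) and 2.02-fold higher than for BCL6-only sites (adjusted p = 4.62e-11). Between shared and BCL6-only sites no difference was detected (odds ratio 0.885, exact test, adjusted p = 0.563). The excess of PPARδ-only sites lay in the nearest kilobase: 13.9% of PPARδ-only sites were less than 1 kb from a TSS, against 5.93% of shared and 6.70% of BCL6-only sites. At 1 to 5 kb the shares were 13.8%, 14.7% and 15.0%, and beyond 50 kb they were 25.2%, 23.8% and 25.4%, with overlapping intervals in both bins. Introns held 46.6% of PPARδ-only, 45.7% of shared and 51.4% of BCL6-only sites, and the 5′ UTR held 1.61%, 0.593% and 0.513%.

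Promoters of a different base composition carried these sites. Mammalian promoters fall into a CpG-rich class, common at genes used in many tissues, and a CpG-poor class, common at tissue-specific genes. A promoter was called CpG-rich if the 500 bp to either side of its TSS held at least 50% G and C and a ratio of observed to expected CpG of at least 0.6, a definition added after the CpG content of the windows had been seen. Of the 151 PPARδ-only promoter sites 97 were in CpG-rich promoters (64.2%, interval 56.3% to 71.4%), against 10 of 38 shared sites (26.3%, 15.0% to 42.0%) and 118 of 444 BCL6-only sites (26.6%, 22.7% to 30.9%). Among all 26208 start sites of protein-coding genes 46.6% were CpG-rich. PPARδ-only sites differed from shared sites (odds ratio of shared against PPARδ-only 0.199, Fisher's exact test, adjusted p = 5.65e-05) and from BCL6-only sites (0.202, adjusted p = 1.05e-15).

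**Figure D2:**
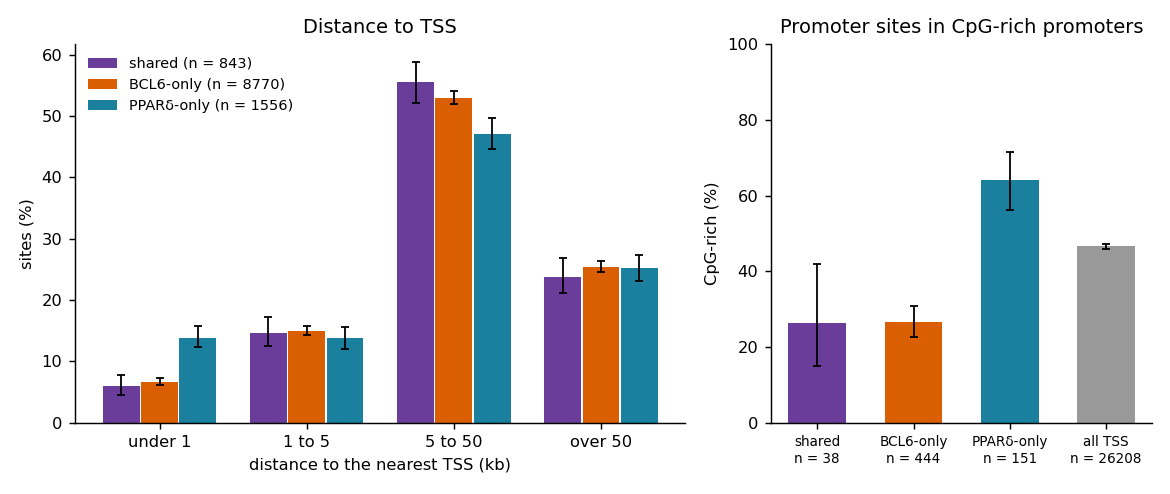
Left, share of the sites of each class (y axis, %) by distance to the nearest RefSeq TSS in kb. Right, share of promoter sites in CpG-rich promoters (%), with all start sites of protein-coding genes in gray. Bars are shares and lines are 95% Wilson intervals, and PPARδ-only sites stand above the other classes within 1 kb of a TSS (13.9%) and in CpG-rich promoters (64.2%).

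Shared promoter sites lay at, for example, C3 and Cfb of the complement system, Agt (angiotensinogen), Lipc (hepatic lipase), Fabp1 (the liver fatty acid binding protein), Bdh1 and Leap2, and also at Chic2, Otulin and Trmt13. All 38 shared promoter sites also had fasted PPARα. Of the 151 PPARδ-only promoter sites 106 (70.2%) had fasted PPARα. PPARδ-only promoter sites without fasted PPARα lay, for example, at the ribosomal protein genes Rpl19 and Rps19. Examples with fasted PPARα were Cycs (cytochrome c), Mtor (a growth-controlling kinase), Uroc1 (an enzyme of histidine breakdown) and Creb3l3 (a liver transcription factor). These promoter genes outside the lists were picked as examples after their values were seen, and whether the genes of the classes differ in kind was not tested.

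Start sites of mitochondrial beta-oxidation genes carried PPARδ-only sites. By nearest TSS within 1 Mb, 704 of 21000 protein-coding genes had a shared site (3.35%), 4339 had a BCL6-only site (20.7%) and 1356 had a PPARδ-only site (6.46%). With a reach of 10 kb these counts fell to 226, 2058 and 510. Of 14 listed genes for mitochondrial beta-oxidation, 11 had a PPARδ-only site, 4 had a shared site and 5 had a BCL6-only site. In promoters as defined above, 4 of the 14 had a PPARδ-only site and 0 had a shared or BCL6-only site. Among all genes the promoter shares were 0.686% for PPARδ-only, 0.162% for shared and 1.84% for BCL6-only sites. Counting only sites within 1 kb of a TSS, a window chosen after the positions had been seen, 9 of the 14 had a PPARδ-only site, 1 had a shared site and 0 had a BCL6-only site. Among all 21000 genes the shares within 1 kb were 1.03% for PPARδ-only, 0.200% for shared and 2.43% for BCL6-only sites. The genes were chosen for their function with earlier results of these data known, so the counts describe the list.

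These 9 genes encode acyl-CoA dehydrogenases, electron transfer proteins, a thiolase and a reductase. The acyl-CoA dehydrogenases start each round of the cycle, and their PPARδ-only sites were centered 408 bp downstream of the TSS at Acadvl (very long chain), 463 bp downstream at Acadl (long chain), 330 bp upstream at Acadm (medium chain) and 139 bp downstream at Acads (short chain). For the electron transfer flavoprotein and its oxidoreductase, the sites lay 100 bp upstream at Etfa, 135 bp upstream at Etfb and 409 bp downstream at Etfdh. Acaa2, a thiolase of the last step, had its site 119 bp upstream, and Decr1, a reductase for unsaturated fatty acids, 584 bp downstream. All 9 sites had fasted PPARα and fed PPARδ, 2 (Acadm and Decr1) had fed BCL6, and 4 held a DR1. The nearest fasted BCL6 center was between 1469 bp (Etfa) and 270019 bp (Acadvl) away. Of the other 5 genes, Hadha had a PPARδ-only site 2762 bp downstream of its TSS in intron 1 and Eci1 had one 2541 bp downstream. Hadhb, which encodes the other subunit of the trifunctional protein of Hadha, had a shared site in intron 6, and Hadh had shared sites in introns 1 and 3. Echs1 had no site of any class.

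Peroxisomal beta-oxidation was more mixed. Of 13 listed genes, 4 had a PPARδ-only site within 1 kb of a TSS, 3 had a BCL6-only site there and 0 had a shared site. Among all genes the shares within 1 kb were 1.03%, 2.43% and 0.200%, so 0 shared sites in 13 genes says little. The 4 were Acaa1a (a peroxisomal thiolase, 107 bp upstream), Eci2 (227 bp upstream), Abcd3 (a transporter of the peroxisomal membrane, 413 bp downstream) and Hsd17b4 (a bifunctional enzyme, 670 bp downstream). All 4 had fed PPARδ and fasted PPARα, and 3 had fed BCL6. The nearest fasted BCL6 center was 21791 bp away or more. Acox2, Ehhadh and Acaa1b had a BCL6-only site in the promoter and a shared site farther away, which for Ehhadh was in intron 1, 4812 bp downstream of the TSS. Over all 217 PPARδ-only sites less than 1 kb from a TSS, 70.0% had fasted PPARα, 63.6% had fed PPARδ, 9.68% had fed BCL6 and 16.1% held a DR1.

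Genes for transport and activation of fatty acids held all classes. Slc25a20, the carnitine-acylcarnitine carrier of the inner mitochondrial membrane, had a PPARδ-only site in its promoter, and Cpt1a, the rate-limiting carnitine palmitoyltransferase, had one 2185 bp downstream of its TSS in intron 1, beside 3 BCL6-only sites. Cpt2, its partner on the inner membrane, had a shared site in intron 1, and Slc22a5, the plasma membrane carnitine transporter, had 2 shared sites. Acsl1, the main long-chain acyl-CoA synthetase of liver, had 4 shared and 8 BCL6-only sites and no PPARδ-only site. Fabp1 and Cd36, a fatty acid transporter, had 3 shared sites each. Slc27a1, a fatty acid transport protein, and Acsl3, another long-chain acyl-CoA synthetase, each had 1 site, a PPARδ-only site in the promoter, 379 and 980 bp upstream. Fabp4 had 1 PPARδ-only site and no other, and Lpl, the lipoprotein lipase, had 1 PPARδ-only and 2 BCL6-only sites. At Fabp1 1 of the shared sites was in the promoter, and at Cd36 a PPARδ-only site lay in the 5′ UTR while 2 of its shared sites were in intron 1.

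Ketone body genes carried shared sites. Of 4 listed genes 3 had a shared site (Bdh1, Acat1 and Slc16a1), all 4 had a BCL6-only site and 0 had a PPARδ-only site. Among all genes, by nearest TSS, these shares were 3.35%, 20.7% and 6.46%. In promoters, 0.162% of all genes had a shared site, 1.84% a BCL6-only site and 0.686% a PPARδ-only site, and of the 4 ketone body genes 1 had a shared promoter site (Bdh1). Bdh1 had 2 shared sites, 122 and 22920 bp upstream, with centers 19 and 20 bp apart. The count of PPARδ-only sites in the 4 genes was lower than that in mitochondrial beta-oxidation genes (11 of 14), as a description of both lists. With only 4 genes and a share of 6.46% among all genes, the count of 0 does not show a lack of such sites.

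Lipid storage genes held all classes. Plin5, a lipid droplet coat protein of oxidative tissues, had 1 site, PPARδ-only, 97 bp upstream of its TSS. Plin2, its more widely expressed relative, had a shared site 20288 bp upstream and a PPARδ-only site 1955 bp upstream, and Mgll, the monoglyceride lipase, had 2 shared sites. G0s2, an inhibitor of the main triglyceride lipase, had a shared site 5380 bp upstream and 2 PPARδ-only sites near the gene. Mogat1, an acyltransferase of triglyceride synthesis, had a shared promoter site whose centers were 2 bp apart, and Gpat4 had a PPARδ-only promoter site 614 bp upstream and a shared site 1645 bp upstream. Pdk4, the kinase that shuts off pyruvate dehydrogenase in fasting, had a PPARδ-only site 198 bp upstream and shared sites 2742 and 13646 bp upstream. At the acyl-CoA thioesterase Acot1 the promoter held both a shared site 213 bp upstream and a PPARδ-only site 986 bp upstream. Reads with several places in the genome had been left out of the peak calls, so that near-identical Acot genes can lack peaks.

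Several other lists had BCL6-only sites at most of their genes, where 20.7% of all genes had one, 3.35% a shared site and 6.46% a PPARδ-only site. This did not hold for lymphocyte BCL6 targets (5 of 13), hepatokines (3 of 6) or pyruvate dehydrogenase control (3 of 6). All 8 listed genes for bile acid synthesis and transport had a BCL6-only site, 6 of them in the promoter, 1 had a shared site and 0 had a PPARδ-only site. The promoter sites were at Cyp7a1, the rate-limiting enzyme (150 bp upstream), Cyp8b1, Cyp27a1, Slc10a1, Abcb11 and Nr0b2, and the shared sites, 2 in number, were 29370 and 36385 bp downstream of the Cyp7a1 TSS. Of 15 clock genes 12 had a BCL6-only site (80.0%), 4 a PPARδ-only site (26.7%) and 0 a shared site, so that both shares stood above those of all genes. Of 11 hepatocyte transcription factors 9 had a BCL6-only site, 3 a shared site (Foxa2, Onecut1 and Onecut2) and 0 a PPARδ-only site. Of 11 insulin signaling genes 9 had a BCL6-only site (81.8%), 6 a shared site (54.5%) and 2 a PPARδ-only site (18.2%), with 3 shared sites at Foxo3, 2 each at Foxo1, Pik3r1 and Igfbp1, and 1 each at Insr and Irs2. Irs2, an insulin receptor substrate, also had 18 BCL6-only sites. In the growth hormone list of 12 genes, 10 had a BCL6-only site, and Cish, a suppressor of cytokine signaling, had a shared site 47 bp downstream of its TSS, in its 5′ UTR.

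**Figure D3:**
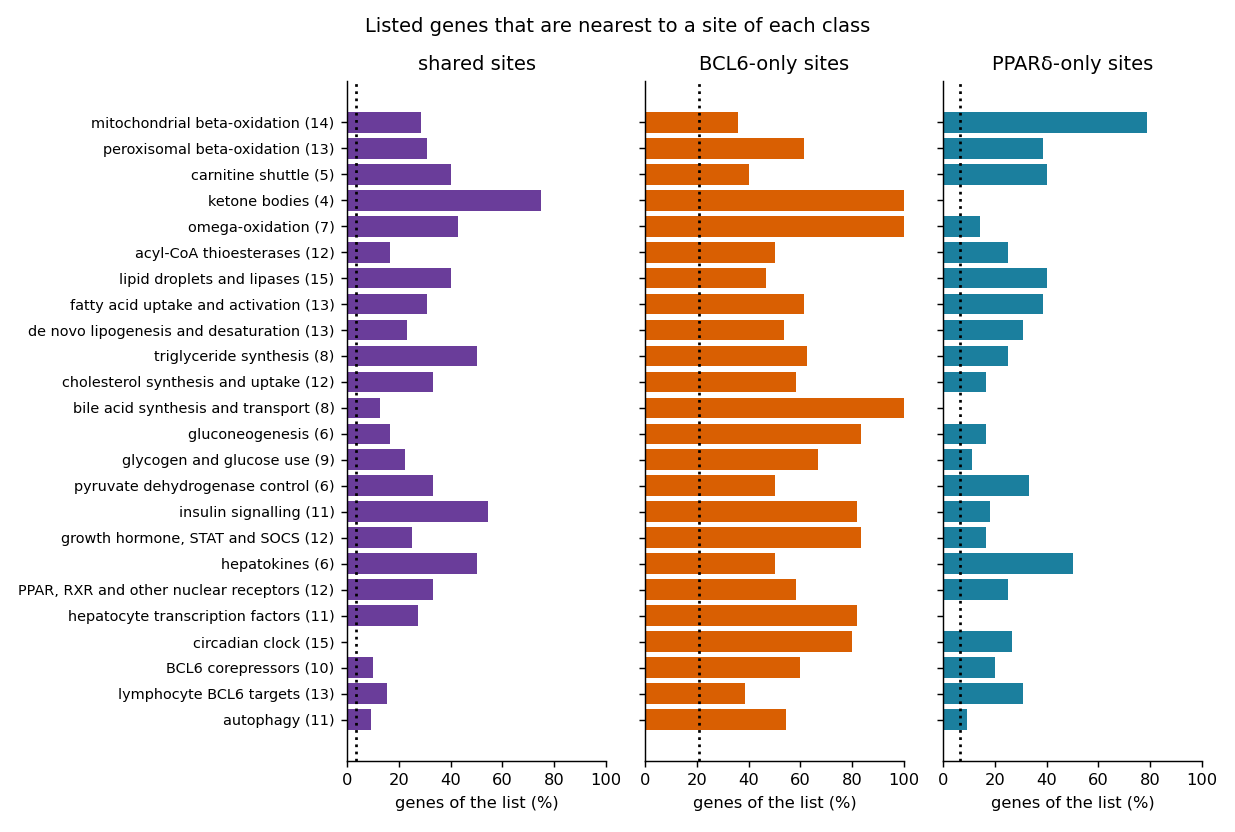
Share of the genes of each list (x axis, %) that are nearest to a shared, BCL6-only or PPARδ-only site, with the number of genes in parentheses and the share of all 21000 protein-coding genes as a dotted line (3.35%, 20.7% and 6.46%). Mitochondrial beta-oxidation stands out on the right with 11 of 14 genes, and ketone body genes on the left with 3 of 4.

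Over all 246 listed genes, 68 had a shared site (27.6%), 155 a BCL6-only site (63.0%) and 66 a PPARδ-only site (26.8%), and 54 had none. Among all 21000 protein-coding genes the shares were 3.35%, 20.7% and 6.46%, which stand beside each list count below. Shared sites were found at 2 of 12 acyl-CoA thioesterases, 4 of 8 triglyceride synthesis genes, 6 of 15 lipid droplet genes, 3 of 13 lipogenesis genes, 4 of 12 cholesterol genes, 1 of 6 gluconeogenesis genes, 2 of 9 glycogen and glucose genes, 3 of 6 hepatokines and 4 of 12 nuclear receptor genes. Fgf21, a fasting hepatokine, had 1 shared site and no other. Pck1, of gluconeogenesis, had 1 shared and 5 BCL6-only sites. Shared sites were found at 2 of 5 carnitine shuttle genes, 4 of 13 fatty acid uptake genes and 3 of 12 growth hormone genes. They were also found at 3 of 7 omega-oxidation genes and 2 of 6 genes of pyruvate dehydrogenase control. The counts were 1 of 10 BCL6 corepressor genes, 2 of 13 genes known as BCL6 targets in lymphocytes and 1 of 11 autophagy genes. Bcl6 itself had 1 shared site 55054 bp upstream and 6 BCL6-only sites, Ppara had 1 shared site in intron 2 and 5 BCL6-only sites, and Ppard had none. Some genes had sites of both factors at separate places: of the 1356 genes with PPARδ-only sites, 534 (39.4%) had BCL6-only sites but no shared site. Another 651 (48.0%) had no fasted BCL6 site. Lacking a fasted BCL6 site was more common among all 21000 protein-coding genes. Of these, 15861 had no site of any class, 20.7% had a BCL6-only site and 3.35% a shared site. Of the 704 genes with shared sites 555 (78.8%) also had BCL6-only sites, where 20.7% of all genes had one.

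The genes with the most shared sites were Nr2f2, which encodes the nuclear receptor COUP-TFII, with 5, and Acsl1, Crot, Dusp6 and Rplp1 with 4 each. Crot is a carnitine acyltransferase of peroxisomes, and its 4 shared sites were between 31438 and 43674 bp upstream of the TSS. Dusp6 is a phosphatase of ERK kinases. Ackr2, Ahcy, Cd36, Fabp1 and Foxo3 followed with 3 each. The 4 sites nearest to Rplp1, a ribosomal protein gene, were between 73098 and 186174 bp from it, so the nearest TSS need not be the gene they act on. The most PPARδ-only sites were at Dhrs3, a retinaldehyde reductase, with 5, beside 1 shared and 11 BCL6-only sites, and at Cd180, Chst15, Hs3st3b1 and Zfp36l2 with 4 each. Of the 4 at Chst15 and of the 4 at Hs3st3b1, 1 each had fasted PPARα.

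PPARα, which was not used to define the classes, separated them. Fasted PPARα was called at 834 of 843 shared sites (98.9%, interval 98.0% to 99.4%), at 6902 of 8770 BCL6-only sites (78.7%, 77.8% to 79.5%) and at 879 of 1556 PPARδ-only sites (56.5%, 54.0% to 58.9%). Shared sites exceeded BCL6-only sites, with odds 25.1-fold higher (Fisher's exact test over sites, adjusted p = 1.34e-68) and PPARδ-only sites, with odds 71.4-fold higher (adjusted p = 2.26e-140). PPARα was counted within 200 bp of any center of a site. Shared sites have a center of each factor and were thus searched over a wider span, as also for the fed calls below. With a distance of 100 bp the odds ratios were 22.3 and 52.4. Whether the PPARδ and PPARα antibodies share any reactivity was not tested. At the 834 sites with all 3 factors, the median distance between centers was 25 bp for PPARδ and PPARα, 31.0 bp for BCL6 and PPARα and 35.0 bp for BCL6 and PPARδ. The PPARα center was nearer to PPARδ at 461 sites, nearer to BCL6 at 361 and equally near at 12. The 9 shared sites without fasted PPARα lay outside promoters, between genes or in introns, for example in intron 1 of Bmp10 and intron 1 of Creb3l2, genes chosen as examples after values were seen.

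Sites of the same factor were found again in fed livers more often where both factors met. Fed BCL6 was called at 88.6% of shared sites (interval 86.3% to 90.6%) and 78.8% of BCL6-only sites (77.9% to 79.6%), and their odds ratio was 2.10 (Fisher's exact test, two-sided, adjusted p = 7.89e-13). Fed PPARδ was called at 87.7% of shared sites (85.3% to 89.7%) and 50.9% of PPARδ-only sites (48.4% to 53.4%), and the odds ratio was 6.85 (exact test, adjusted p = 3.45e-78). Fed livers of Bcl6 fl/fl mice, a second fed BCL6 list from floxed controls without Cre, gave 91.2%, 79.4% and 25.2% for shared, BCL6-only and PPARδ-only sites. In fed C57BL/6 livers, BCL6 was called at 16.4% of PPARδ-only sites and PPARδ at 28.4% of BCL6-only sites. Of the 843 shared sites, 667 (79.1%) were called for both factors in fed livers, 80 for BCL6 alone, 72 for PPARδ alone and 24 (2.85%) for neither. Of the 1556 PPARδ-only sites, 719 (46.2%) had neither factor in fed livers, against 1578 (18.0%) of the BCL6-only sites.

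**Figure D4:**
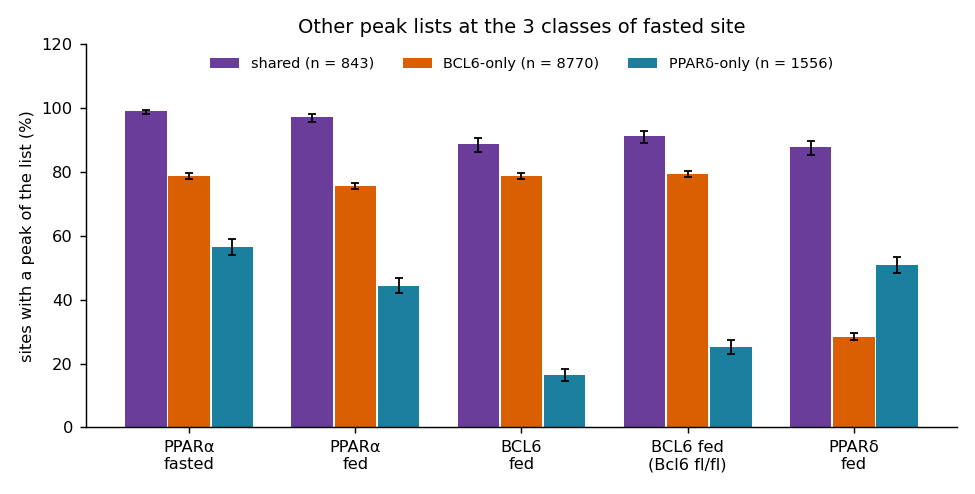
Share of the sites of each class (y axis, %) that also had a peak of 5 other lists (x axis), with 95% Wilson intervals as lines. Fasted PPARα was called at 98.9% of shared, 78.7% of BCL6-only and 56.5% of PPARδ-only sites.

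The overlap was smaller in fasted than in fed livers. In fed livers 4207 sites were shared, 57.4% of 7328 PPARδ peaks (interval 56.3% to 58.5%) and 26.9% of 15642 BCL6 peaks. For PPARδ peaks the odds of having BCL6 were 2.49-fold lower in the fasted than in the fed list (Fisher's exact test, two-sided, p = 1.14e-80). Traced into the fasted lists, 676 of the 4207 fed shared sites (16.1%, interval 15.0% to 17.2%) were called for both factors, 2215 (52.7%, 51.1% to 54.2%) for BCL6 alone, 201 (4.78%) for PPARδ alone and 1115 (26.5%) for neither. Most of the sites that stopped being shared were therefore still in the fasted BCL6 list and not in the shorter fasted PPARδ list. The lists differ in length, and how far depth or antibody yield set that length was not tested.

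Sequence elements in the 100 bp around the site center differed in frequency between the classes. The DR1, with up to 2 mismatches in the 12 paired bases of the repeat, was in 17.3% of PPARδ-only, 13.5% of shared and 6.18% of BCL6-only windows, and in 1.11% of the 26474739 tiles of 100 bp that make up the same chromosomes. All 3 differences passed the test, with odds ratios of 2.37 for shared against BCL6-only (Fisher's exact test, adjusted p = 9.01e-13), 0.748 for shared against PPARδ-only (0.0214) and 0.315 for BCL6-only against PPARδ-only (2.45e-40). Shared against PPARδ-only was no longer past the threshold in 200 bp windows (odds ratio 0.904, exact test, adjusted p = 0.403). Shared against BCL6-only lost its call with 1 mismatch fewer (odds ratio 1.34, exact test, adjusted p = 0.355), where PPARδ-only windows held the DR1 in 4.31%, shared windows in 1.54% and BCL6-only windows in 1.15%. Within 200 bp of their own center, shared and PPARδ-only sites with a single DR1 had it a median of 31.0 and 26.0 bp from the PPARδ center, and the shared sites 44.0 bp from the BCL6 center.

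The BCL6 element, with at most 1 mismatch, was most frequent in the BCL6-only class, most of whose sites had fasted PPARα (78.7%). It was in 10.5% of BCL6-only, 6.29% of shared and 4.69% of PPARδ-only windows, against 3.58% of genome tiles. BCL6-only sites differed from shared sites (odds ratio of shared against BCL6-only 0.575, Fisher's exact test, adjusted p = 1.05e-04) and from PPARδ-only sites (2.37, adjusted p = 1.02e-13), while shared and PPARδ-only sites did not pass the test (1.36, adjusted p = 0.124). The difference between shared and BCL6-only sites was not past the threshold in 50 bp windows (0.677, exact test, adjusted p = 0.0576). Within the BCL6-only class, a split made after values were seen gave the element in 447 of 1868 sites without fasted PPARα (23.9%) and in 470 of 6902 sites with it (6.81%). By the same split, shared sites held the element in 51 of 834 with fasted PPARα (6.12%) and in 2 of 9 without it. Shared and BCL6-only sites with fasted PPARα were thus close in this share, and the split was not tested.

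Elements of hepatocyte factors followed BCL6. ATCAATA, the core bound by the liver factor HNF6, was in 6.29% of shared, 6.91% of BCL6-only and 0.835% of PPARδ-only windows, against 1.57% of genome tiles. The odds ratio was 7.96 for shared against PPARδ-only sites (Fisher's exact test, adjusted p = 1.41e-13) and 8.81 for BCL6-only against PPARδ-only sites (9.72e-28). Shared and BCL6-only sites did not differ detectably (0.904, exact test, adjusted p = 0.639). TTGCGCAA with at most 1 mismatch, bound by C/EBP factors, was in 10.8%, 7.99% and 3.21% of shared, BCL6-only and PPARδ-only windows (tiles 1.12%), and TGTTTAC, bound by FOXA factors, in 6.05%, 5.71% and 2.89% (tiles 1.47%). CAAAGTCCA, a site of HNF4, which overlaps in its letters with a DR1, was in 1.42%, 1.44% and 0.257% (tiles 0.123%). For each of these 3 elements both classes with BCL6 exceeded PPARδ-only sites, with adjusted p between 9.01e-13 and 0.00340 over 18 tests. With 0 mismatches the C/EBP element was in only 2 of 843 shared, 22 of 8770 BCL6-only and 1 of 1556 PPARδ-only windows. At these low counts neither difference from PPARδ-only sites was called (odds ratios 3.70 for shared and 3.91 for BCL6-only sites, Fisher's exact test, adjusted p = 0.355 for both). In 50 bp windows the FOXA difference of shared sites did not pass (1.80, Fisher's exact test, adjusted p = 0.0576). AAGTAGG, letters that precede and enter the first half-site of some PPAR elements, was noticed in the data and is given without a test: it was in 5.46% of PPARδ-only, 2.85% of shared and 0.958% of BCL6-only windows, against 1.20% of tiles.

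**Figure D5:**
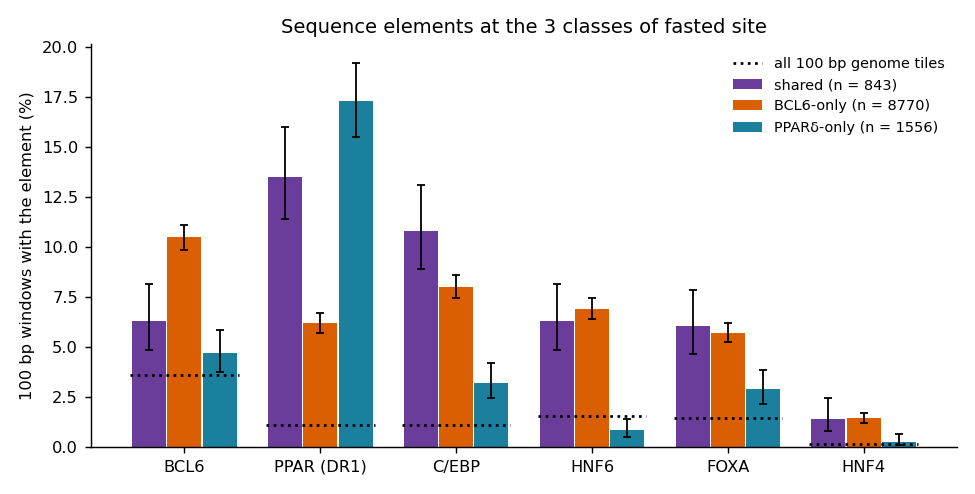
Share of 100 bp windows with each element (y axis, %) in the 3 classes, with 95% Wilson intervals as lines and the share of all 100 bp genome tiles as dotted lines. The PPAR DR1 is most frequent in PPARδ-only windows (17.3%), the BCL6 element in BCL6-only windows (10.5%), and the HNF6 core is at 0.835% in PPARδ-only windows.

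The windows also differed in composition, which bears on the element counts. G and C made up 49.6% ± 8.96 (SD over 1556 windows) of PPARδ-only, 46.3% ± 6.39 of 843 shared and 44.6% ± 6.69 of 8770 BCL6-only windows. At least 5 CpG dinucleotides were found in 7.65%, 1.30% and 1.73% of these windows. How much of the difference in A- and T-rich elements such as the HNF6 core follows from composition was not tested.

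PPARδ-only sites with and without fasted PPARα were unlike each other. The 879 with PPARα were called for fed PPARδ in 74.7% and for fed BCL6 in 28.2%, were in promoters in 12.1% and held a DR1 in 19.9%. For the 677 without PPARα these shares were 19.9%, 1.03%, 6.65% and 13.9%. This split was made after values were seen and is given without a test. Among markers of the other cells of the liver, none of 14 Kupffer cell genes was nearest to a site of any class. Of 10 liver endothelial genes 0 had a shared site, 4 a BCL6-only site (40.0%) and 3 a PPARδ-only site (30.0%), and of 10 stellate cell genes the counts were 0, 2 and 2. Among all genes the shares were 3.35%, 20.7% and 6.46%. The endothelial genes with a PPARδ-only site were Kdr and Pecam1, with sites in introns 10 and 13, and Cdh5, whose site lay 633615 bp away. None of these 34 genes had a site within 1 kb of a TSS. The part of other cell types in PPARδ-only sites was not tested.

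The study describes the regions it measured by ChIP-qPCR as sites shared by BCL6 and PPARα. BCL6 peaks at most of them therefore follow from that choice and are not a result about the classes. Both primers of 13 amplicons matched the genome exactly at a single place, and peaks with centers less than 200 bp from the middle of the amplicon were counted. Both fasted factors were called at 5, which were the upstream amplicon of Acot4 and the amplicons of Bdh1, Cd36, Ehhadh and Fads2. BCL6 alone was called at 7, in Abhd2, Acot2, Acot3, Acot4 (downstream), Cyp4a31, Idh2 and Por. PPARδ alone was called at 1, in Angptl4, in intron 3 of this inhibitor of lipoprotein lipase, where fed BCL6 was called and the nearest fasted BCL6 center was 4688 bp away. In fed livers PPARδ was called at 12 of the 13 amplicons, against 6 in fasted livers.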

How the data were processed

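The analysis used the peak lists of BCL6 and PPARδ from fasted C57BL/6 livers and, for comparison, the other 5 lists (fasted and fed PPARα, fed BCL6, fed PPARδ, and fed BCL6 from Bcl6 fl/fl mice). Per the study's methods, reads were aligned by the authors to mm10 (Bowtie, unique reads, 1 read per start position), peaks were found in the 3 replicates together over input (HOMER), and DESeq2 served as a filter on them. The deposited files hold peak start and end positions in bp, of 1 fixed width per list (210 bp for fasted BCL6, 204 bp for fasted PPARδ), and no normalization applies. No peak ran past a chromosome end of GRCm38, the assembly of mm10.

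Sites were formed by single linkage of peak centers less than 200 bp apart. Genes came from 45756 RefSeq transcripts of GRCm38.p6, and each site was assigned to its nearest start among 21000 protein-coding genes, up to 1 Mb away. Fisher's exact tests (two-sided) compared shares, and p-values were adjusted after Benjamini and Hochberg per family of tests. Functions were checked on simulated data. Members, the 24 gene lists and the elements were chosen with earlier results of these data known, and 3 marker lists, the CpG classes, the 1 kb window and the splits by PPARα were added after values were seen. Named genes were the 10 with the most shared and the 5 with the most PPARδ-only sites, listed genes with at least 2 shared sites or with a shared or PPARδ-only promoter site (the first 25 by shared sites, though the remaining 11 and others of the described lists are also named, after values were seen), and genes of the ChIP-qPCR amplicons. Alternatives covered distance, promoter window, reach, chromosomes and element search. Other samples of the series were not used here, and 2 genes of the lists are not reported here and were left out of all list counts. Software was pysam 0.24.0, SciPy 1.17.1, NumPy 2.4.6 and Python 3.11.15.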

Additional observations from a re-analysis of the deposited data

Results flagged for a closer look

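The share of PPARδ peaks with BCL6 differed between feeding states, at 35.1% of the fasted and 57.4% of the fed peaks (odds ratio of fasted against fed 0.402, two-sided Fisher's exact test over peaks, p = 1.14e-80). Both fasted lists are shorter than the fed lists, with 9613 against 15642 peaks for BCL6 and 2399 against 7328 peaks for PPARδ. The part of these differences in the overlap was not tested.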

How the results depend on the processing

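No paired analysis was possible because each list pools its 3 replicates, and for the same reason no replicate could be left out. Of 170 recomputed values for 31 results, 150 kept their direction and their side of the threshold, or stayed within their interval or within 1.5 times the main count. The promoter, PPARα, fed-call and fasted-against-fed results kept direction and call under all of their alternatives. With a distance of 100 bp, the overlap fell to 32.2% of PPARδ and 8.03% of BCL6 peaks. With a reach of 10 kb, 226 genes had a shared, 2058 a BCL6-only and 510 a PPARδ-only site. Of the BCL6 element, shared against BCL6-only sites lost its call in 50 bp windows (odds ratio 0.677, exact test, adjusted p = 0.0576). Shared against PPARδ-only sites reversed with repeat-masked windows left out (0.996) and passed the threshold with windows at the BCL6 center, an alternative added after values were seen (1.56). Of the DR1, shared against PPARδ-only sites lost its call in 200 bp windows (0.904), and shared against BCL6-only sites with 1 mismatch fewer (1.34). Shared against BCL6-only sites, uncalled in the main search, changed direction for FOXA in 50 and 200 bp windows (0.941 and 0.962) and for HNF4 with masked windows left out, with BCL6-centered windows and outside promoters (1.12, 1.07 and 1.06). For C/EBP it reversed with 1 mismatch fewer (0.946). In 50 bp windows calls were lost for FOXA, shared against PPARδ-only (1.80), and C/EBP, shared against BCL6-only (1.18). With 1 mismatch fewer, C/EBP against PPARδ-only sites lost its calls (3.70 against 3.64 in the main search for shared, 3.91 against 2.62 for BCL6-only sites). These ratios rest on few windows with the element: 2 shared, 22 BCL6-only and 1 PPARδ-only. The cause of these changes was not tested. FOXA, HNF6 and HNF4 elements allowed no mismatch and were not in that alternative.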
